A study of Mus musculus with 24 samples.

Results

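Unstimulated Lyn-KO cells (3 arrays) were compared with unstimulated WT cells (3 arrays), chosen by the sample titles from a series of 24 arrays. Bone marrow cells on a C57BL/6 background had been grown for 9 days with human Flt3-ligand at 100 ng/ml, a culture that gives a mixture of plasmacytoid and conventional dendritic cells, and were harvested without stimulation. The WT cells carried neither knockout, and the Lyn-KO cells lacked the kinase gene Lyn alone. The series also holds Irf5-KO cells and double knockout cells (DKO, Lyn and Irf5), and each of the 4 genotypes exposed to 150 nM of a CpG-B oligonucleotide for 6 h. The labels do not say how the Lyn allele was made or how much of the gene it removes, and the design text calls the 3 samples of a genotype a biological triplicate. RNA came from the whole culture, so each value is an average over all cell types present.

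Lyn is a Src-family tyrosine kinase of B cells and myeloid cells. It phosphorylates activating motifs (ITAMs) of antigen and Fc receptors, and also inhibitory motifs (ITIMs) of receptors such as CD22 and PIR-B, which then recruit the phosphatases SHP-1 and SHIP-1. In dendritic cells it also restrains signalling downstream of Toll-like receptors by binding the transcription factor IRF5, which drives inflammatory cytokine and type I interferon genes, and mice without Lyn develop autoimmune disease.

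The values are log2 signals minus the array's 75th percentile, called levels here, so a level of 0 is that percentile of the array. On the 6 arrays between 41.03% and 53.75% of the spots were well above background by the scanner software's own flag and no spot was saturated. Pairs of arrays from the same group had correlations between 0.9909 and 0.9949. Differences are Lyn-KO minus WT, with standard errors and adjusted p-values from limma fitted on all 24 arrays. A gene was called at an adjusted p under 0.05.

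Of 20218 features tested, 926 were called (4.58%), with 370 higher (1.83%) and 556 lower (2.75%) in Lyn-KO cells. The median over all features was 0.01, and 3293 features had an unadjusted p under 0.05. The lower calls were larger: their median was -0.98 against 0.55 for the higher calls, and 276 of them against 76 of the higher calls were at least 2-fold. RefSeq gene symbols could be assigned to 591 of the called features, and the other 335 have no gene symbol here. Features without a symbol were 109 of those lower by over 8-fold, where 12 named genes were that far down. Of these 109, 94 carry Ensembl transcript identifiers, so a feature without a symbol here can be an annotated transcript. Of the 926, 911 had no overlap between the groups, where 21% of all features did not overlap. Leaving out 1 array gave 594 to 1065 calls, the fewest without Lyn-KO replicate 3, and a fit on the 6 arrays alone gave 322.

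The kinase itself marked the groups. The level of Lyn was 0.75, 1.13 and 1.04 on the WT arrays and -0.93, -0.87 and -0.75 on the Lyn-KO arrays. The groups lay far apart, and the difference was -1.82 ± 0.09 (SE, n = 3 against 3, adjusted p = 8.43e-10), a 3.54-fold reduction. Its single probe stayed well above background on all 24 arrays, and whether it lies in the deleted part is not known here, so the values show less signal from this probe, not how much of the transcript is lost. Irf5, intact in these cells by the labels, differed by 0.09 ± 0.09 (adjusted p = 0.69).

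Among the 12 measured Src-family kinases and regulators, 1 rose and 3 fell, Lyn included, with a list median of -0.02 (1.83% of all features rose and 2.75% fell). Fyn, a kinase of the same family, read 2.14, 2.19 and 2.11 in WT and 2.52, 2.40 and 2.43 in Lyn-KO cells. All 3 Lyn-KO arrays were above all WT arrays, and the rise was 0.30 ± 0.06 (adjusted p = 0.00451). Lck, the family member best known from T cells, fell by 0.83 on the log2 scale (SE 0.16, adjusted p = 0.00284). The myeloid kinase Fgr differed by 0.12 and Csk, the kinase that shuts the family off, by -0.03, neither of them called. The partners of Lyn in inhibition were mostly not called: 2 of 23 rose and none fell (4.58% of all features were called), the collagen receptor Lair1 by 0.48 ± 0.11 (adjusted p = 0.0117) and Cd5 by 0.55 ± 0.14 (adjusted p = 0.0302). The call of Cd5 was lost in 5 of the 6 fits that left out an array. Pirb (0.13), Cd22 (0.25), Ptpn6, which encodes SHP-1 (-0.03), and Inpp5d, which encodes SHIP-1 (-0.09), were not called.

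Genes of the B lineage and of antibody-secreting cells were among those most reduced. Of 23 measured genes for the B cell receptor, its surface partners and transcription factors, 14 fell and none rose, where 2.75% of all features fell. The list median was -0.54 against 0.01 over all features. All 14 were without overlap between the groups, as were 911 of all 926 called features. The 14 ranged from -0.42 to -4.70, and 9 of the list, among them Spib (0.23, adjusted p = 0.14) and Cd37 (0.07), were not called. In bulk RNA of this kind, fewer cells of a type and less RNA per cell cannot be told apart.

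The cofactor gene Pou2af1, which serves octamer-dependent transcription in B cells, had levels of 2.15, 2.31 and 2.86 in WT and -1.95, -2.17 and -2.66 in Lyn-KO cells. Every Lyn-KO array was low, and the difference was -4.70 ± 0.37 (adjusted p = 1.78e-07). Fcmr, the receptor for IgM, read 2.95, 3.01 and 3.41 against -1.04, -1.22 and -1.67, a difference of -4.43 ± 0.26 (adjusted p = 4.41e-09). WT replicate 3 was the highest WT array for Pou2af1 and Fcmr, and for 13 of the 14 genes.

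Ms4a1, which encodes CD20, read 3.51, 3.55 and 4.02 in WT against 0.18, 0.34 and 0.15 in Lyn-KO cells (difference -3.47 ± 0.19, adjusted p = 2.58e-09). The chemokine receptor Cxcr5, which guides B cells to follicles, fell by 2.88 on the log2 scale (SE 0.17, adjusted p = 4.41e-09). The genes for both signalling chains of the B cell receptor fell. Cd79b read 4.79, 4.78 and 5.22 against 2.64, 2.62 and 2.71, a difference of -2.27 ± 0.18 (adjusted p = 2.17e-07), and it stayed well above background on all Lyn-KO arrays. Cd79a differed by -2.65 ± 0.21 (adjusted p = 1.94e-07) and was well above background on 1 of 3 Lyn-KO arrays. With normexp background correction followed by quantile normalization, called normexp from here on, the Cd79a difference was -1.49 and the Cd79b difference -2.41. The adaptor gene Bank1 fell by 2.50 (SE 0.27, adjusted p = 7.31e-06), and by 1.66 with normexp.

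The transcription factors that set B cell identity were dim. Ebf1 differed by -2.13 ± 0.32 (adjusted p = 0.000293), was well above background on 2 of 3 Lyn-KO arrays, and differed by -1.15 with normexp. Its adjusted p was 0.139 when only the 6 arrays were fitted. Pax5 was not well above background on any Lyn-KO array. It was at least 2.76-fold lower (adjusted p = 0.00083), a bound that compares the brighter group's mean with a floor for each dim array, the dimmest signal still flagged above background there or the probe's own signal if that was brighter. Such bounds hold only for the scaling used here. With normexp the change was smaller than the bound for every gene given one here, and the Pax5 difference was -0.50 on the log2 scale. The normexp step adds an offset of 50 to every signal, which by itself draws differences of dim probes toward 0. Pou2f2, the octamer factor, fell by 0.42 (SE 0.09, adjusted p = 0.00878), a call lost without WT replicate 1 or Lyn-KO replicate 3.

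Genes of antibody-secreting cells fell in 4 of 13 cases, with none higher (2.75% of all features fell) and a list median of -0.22. Mzb1, a chaperone of the antibody secretory pathway, read 3.39, 3.69 and 4.23 in WT and 0.10, -0.11 and -0.33 in Lyn-KO cells. The difference of -3.88 ± 0.33 (adjusted p = 5.48e-07) left every Lyn-KO array below every WT array. Jchain, which encodes the joining chain of IgM and IgA, read 3.93, 4.12 and 4.82 against 1.01, 0.81 and 0.67 (difference -3.46 ± 0.30, adjusted p = 6.75e-07). Plasmacytoid dendritic cells also express Mzb1 and Jchain. Derl3, of endoplasmic reticulum disposal, differed by -1.56 ± 0.15 (adjusted p = 1.54e-06), and Irf4, a regulator of plasma cells and dendritic cells, by -0.52 ± 0.10 (adjusted p = 0.00296).

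B cell precursor genes gave 1 higher and 2 lower of 11, where 1.83% and 2.75% of all features did so. Vpreb3, expressed in developing B cells, read -0.31, -0.20 and 0.32 in WT and -2.53, -2.16 and -2.53 in Lyn-KO cells (difference -2.34 ± 0.20, adjusted p = 5.48e-07), with 2 of 3 Lyn-KO arrays well above background. Il7r, the receptor for the cytokine that supports B cell precursors, was 0.39 ± 0.09 higher (adjusted p = 0.0216), a call lost when any of WT replicates 2 and 3 or Lyn-KO replicates 1 and 3 was left out.

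**Figure D1:**
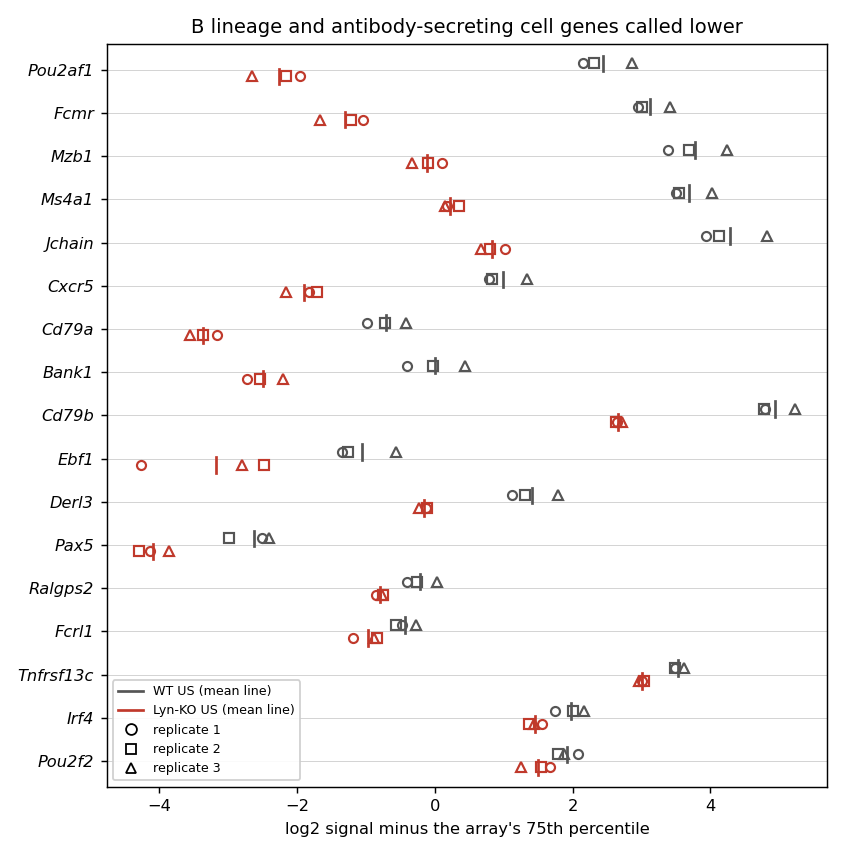
Levels (log2 signal minus the array's 75th percentile, x axis) of B lineage and antibody-secreting cell genes called lower and reported here, 1 gene a row, with WT arrays in grey, Lyn-KO arrays in red, a symbol for each replicate and a line at each mean. No gene overlaps between the groups, as for 911 of all 926 called features, and the difference runs from -4.70 for Pou2af1 to -0.42 for Pou2f2.

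Other genes that fell steeply included the Gimap family, GTPases best known for lymphocyte survival. This family was gathered after its values were seen: 6 of 7 measured members fell, where 2.75% of all features did so. The median was -1.49, or -0.96, -1.23 and -2.50 within slides 1, 2 and 3. WT replicate 3 was the highest WT array for all 6. Gimap3 read 0.15, 0.22 and 0.73 in WT and -3.03, -3.23 and -3.49 in Lyn-KO cells, where 1 of 3 arrays was well above background (difference -3.62 ± 0.25, adjusted p = 4.03e-08). Gimap4 read 0.54, 0.49 and 1.07 against -2.31, -2.89 and -3.36 (difference -3.56 ± 0.23, adjusted p = 1.86e-08), and its 3 probes gave -1.11, -3.87 and -3.56. Gimap8 differed by -2.12, Gimap5 by -1.49 and Gimap1 by -1.18. Gimap6 fell by 0.58 (adjusted p = 0.0388), a call lost in 4 of the 6 fits that left out an array. Gimap9 differed by -0.31 (adjusted p = 0.146). With normexp the differences of Gimap3 and Gimap4 shrank to -2.30 and -2.39.

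Single genes of other lists were also lower, although the lists were mixed. T, NK and innate lymphoid cell markers gave 2 higher and 2 lower of 19, and chemokine receptors 2 higher and 4 lower of 18, each with a median of 0.03. Over all features 1.83% rose and 2.75% fell. S1pr1, the receptor that leads lymphocytes out of tissues, differed by -2.10 ± 0.25 (adjusted p = 2.35e-05), and Ackr2, a scavenger receptor of chemokines, by -3.59 ± 0.27 (adjusted p = 1.14e-07). Both were well above background on only some Lyn-KO arrays (2 of 3 for S1pr1, 1 of 3 for Ackr2), and with normexp they differed by -1.08 and -2.09. The adhesion molecule Cd2 read 1.87, 1.75 and 2.14 in WT and -0.01, 0.02 and -0.05 in Lyn-KO cells (difference -1.94 ± 0.24, adjusted p = 4.42e-05). Cd3e, which defines T cells, differed by -0.06 (adjusted p = 0.879). Il5ra, a receptor chain of eosinophils and some B cells, fell by 2.49 (SE 0.20, adjusted p = 2.51e-07). Dtx1, a Notch-responsive ubiquitin ligase, fell by 2.12 (SE 0.17, adjusted p = 2.72e-07).

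The inhibitory cytokine gene Il10 read -2.44, -1.93 and -1.61 in WT and was not well above background on any Lyn-KO array. It was at least 5.15-fold lower (adjusted p = 5.4e-08), and with normexp it differed by -1.01 on the log2 scale. Cd70, a costimulatory ligand, differed by -1.16 ± 0.12 (adjusted p = 5.83e-06), and by -0.71 with normexp. Scd1, the desaturase that makes monounsaturated fatty acids, read 0.22, 0.47 and 0.87 in WT and -2.51, -2.11 and -2.21 in Lyn-KO cells (difference -2.80 ± 0.20, adjusted p = 5.4e-08). It stood apart within its list: of 26 sterol and fatty acid synthesis genes, Insig1 (0.44), Hmgcs1 (0.31) and Mvk (0.28) rose and Scd1 alone fell. Over all features 1.83% rose and 2.75% fell. Insig1 and Hmgcs1 lost their calls in 4 and Mvk in 6 of the 6 fits without an array, and all 3 with normexp, while 6 of the list rose in the fit with the slide as a block. Klhl14 and Oosp1, neither above background in Lyn-KO cells, were at least 6.51-fold and 11.5-fold lower, and with normexp they differed by -1.39 and -1.87 on the log2 scale.

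Beside all of these reductions, the mean level of the 23 B cell genes was 1.57, 1.53 and 1.79 on the WT arrays and 0.21, 0.24 and 0.15 on the Lyn-KO arrays. The 23 genes were all well above background on every WT array, and 20 were on every Lyn-KO array. The part of B lineage RNA in the reductions of the Gimap genes, S1pr1, Ackr2, Cd2, Il5ra, Il10, Cd70, Dtx1 and Scd1 was not tested.

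Interferon-induced antiviral genes, the longest list, gave the most lower calls of any list. Type I interferons raise these genes through the ISGF3 complex, whose binding site in their promoters is the interferon-stimulated response element. Of 51 measured effectors 27 fell and 1 rose, 47 had a value below 0, and 36 did not overlap between groups, where 2.75% of all features fell and 21% did not overlap. The list median was -0.49 against 0.01 over all features.

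Of the 40 members with a promoter in the RefSeq table (GRCm38.p6, 250 bases before to 50 after the start), 20 hold the letters of this element. For 5 of them the part that holds it is shown, 4 that fell and the 1 that rose, picked after their values were seen. Capitals mark GAAA, any 2 bases and GAAA, or on the opposite strand TTTC, any 2 bases and TTTC, and overlapping matches run together.
Ifit1, chr19:34640769-34640828, plus strand, 120 to 61 bases upstream: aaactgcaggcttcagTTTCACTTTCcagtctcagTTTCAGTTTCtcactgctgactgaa
Ifit3, chr19:34583359-34583428, plus strand: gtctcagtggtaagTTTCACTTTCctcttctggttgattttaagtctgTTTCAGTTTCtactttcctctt
Isg15, chr4:156200859-156200908, minus strand: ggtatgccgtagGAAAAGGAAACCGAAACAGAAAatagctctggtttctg
Rsad2, chr12:26456548-26456587, minus strand: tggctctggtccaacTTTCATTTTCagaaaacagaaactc
Bst2, chr8:71537573-71537617, minus strand: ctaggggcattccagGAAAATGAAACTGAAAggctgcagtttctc

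These letters occurred in 4.05% of the 10136 tested named genes with a promoter in the table and in 3.99% of all 27025 genes there. A gene counted if any of its promoters had a match. Of genes called lower, 35 of 251 had a match (13.9%), and of genes called higher, 6 of 191 (3.14%). Within the antiviral list 11 of 20 genes called lower (55.0%) and 9 of 20 not called lower (45.0%) had one. Ifit1, Ifit3, Isg15 and Rsad2 fell, and Bst2, whose promoter also holds 2 matches, was the 1 member that rose.

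Ifit3, whose protein binds viral RNA in complex with Ifit1, read 2.09, 0.97 and 0.15 in WT and -1.07, -1.36 and -1.23 in Lyn-KO cells. WT replicate 1 was highest and WT replicate 3 lowest, still above the Lyn-KO arrays. The difference was -2.29 ± 0.30 (adjusted p = 6.27e-05), or -3.17, -2.33 and -1.38 within slides 1, 2 and 3. Ifit3 shares sequence with Ifit3b (-2.43), so the values of each are uncertain. Ifit1 read 0.83, 0.04 and -0.45 against -1.12, -1.57 and -1.72 (difference -1.61 ± 0.26, adjusted p = 0.000685).

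Rsad2, which encodes the antiviral enzyme viperin, read 0.79, -0.02 and -0.61 in WT and -1.54, -2.07 and -1.86 in Lyn-KO cells (difference -1.87 ± 0.28, adjusted p = 0.000293). Isg15, a ubiquitin-like modifier, read 4.81, 4.23 and 3.82 against 3.33, 3.22 and 3.17 (difference -1.05 ± 0.21, adjusted p = 0.00441). Usp18, which removes Isg15 from proteins and restrains interferon signalling, differed by -1.25 ± 0.24 (adjusted p = 0.00378), and Oas2, a sensor of double-stranded RNA, by -1.15 ± 0.16 (adjusted p = 0.000157). For 26 of the 27 genes that fell, WT replicate 1 was the highest WT array.

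Some members varied less among the WT arrays. Ddx58, which encodes the RNA sensor RIG-I, read 1.58, 1.33 and 1.33 in WT against 0.52, 0.42 and 0.45 (difference -0.95 ± 0.11, adjusted p = 2.29e-05). Isg20, an exonuclease of single-stranded RNA, differed by -0.94 ± 0.09 (adjusted p = 2.38e-06). Bst2, which encodes tetherin and is also a plasmacytoid marker, read 6.33, 6.16 and 6.18 in WT and 6.61, 6.46 and 6.61 in Lyn-KO cells. It was 0.33 ± 0.08 higher (adjusted p = 0.0248), but the call was lost with quantile normalization, with normexp and in 4 of the 6 fits without an array.

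The antiviral list had mean levels of 2.04, 1.69 and 1.49 on WT replicates 1, 2 and 3 and of 1.16, 0.98 and 1.06 on the Lyn-KO arrays. Without WT replicate 1 the list had 21 genes lower, and without WT replicate 3 it had 32. With only the 6 arrays in the fit 3 were called lower, Ddx58 and Isg20 among them (adjusted p = 0.00867 and 0.0108), and with the 12 unstimulated arrays 17.

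**Figure D2:**
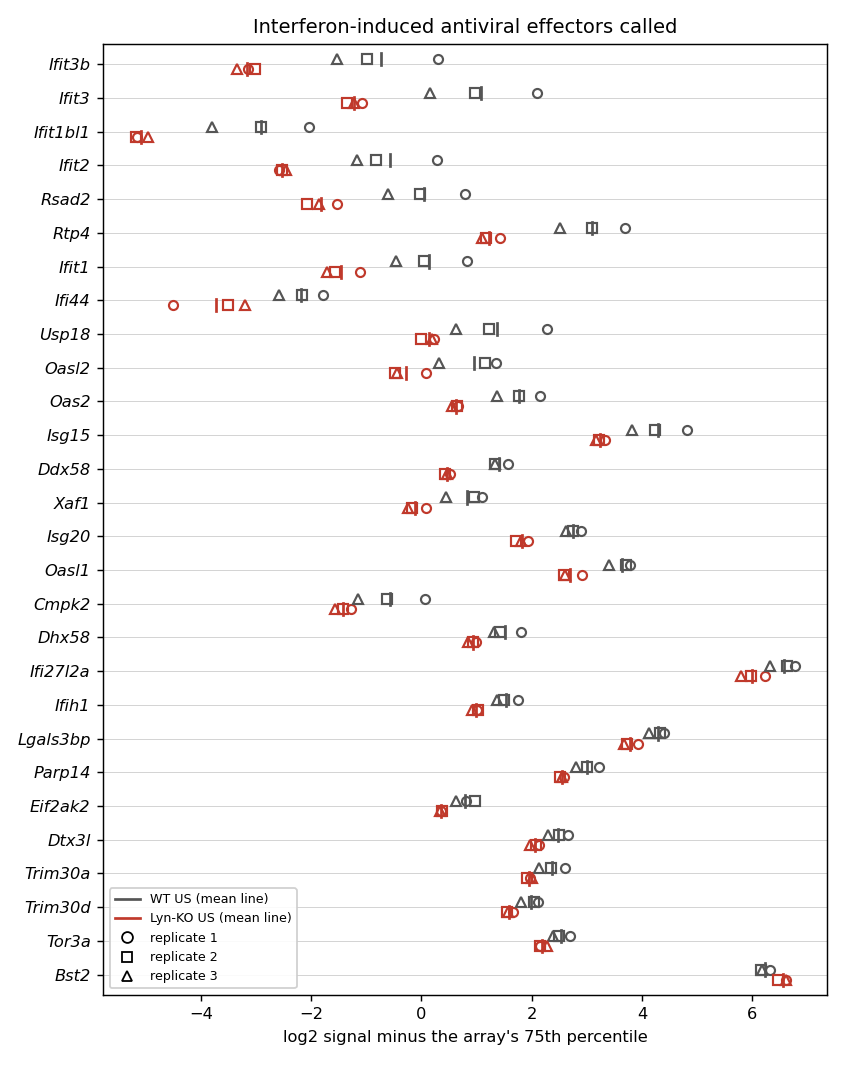
Levels (log2 signal minus the array's 75th percentile, x axis) of the 28 antiviral genes called, WT arrays in grey and Lyn-KO arrays in red, with a symbol for each replicate and a line at each mean. WT replicate 1 (circle) is the highest WT array for 26 of the 27 lower genes, the Lyn-KO arrays of most genes lie closer together than the WT arrays, and Bst2 alone is higher.

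The interferon genes and the parts of their signalling pathway were counted in lists of their own. The 13 type I and III interferon genes were dim, with 7 well above background on every WT array and 1 on every Lyn-KO array. Of these, Ifnb1 alone was called: it read -1.94, -2.56 and -2.71 in WT and -3.06, -3.41 and -3.40 in Lyn-KO cells, where 1 of 3 arrays was well above background. The difference of -0.89 ± 0.25 was at the threshold (adjusted p = 0.0498), and the call was lost in 4 of the 6 fits that left out an array and with normexp. Of 27 interferon receptors, STATs, IRFs and SOCS genes 5 fell and 1 rose, where 2.75% and 1.83% of all features did so. Socs1, a feedback inhibitor of interferon receptors, fell by 0.95 (SE 0.22, adjusted p = 0.0155), a call lost without WT replicate 1. Irf9 (-0.48, adjusted p = 0.0151), a part of the ISGF3 complex, lost its call in 3 of the 6 fits without an array. Irf7 read 1.16, 0.80 and 0.08 against 0.37, 0.04 and 0.02, groups that overlapped, and was not called (-0.54, adjusted p = 0.155).

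Of 15 cytosolic nucleic acid sensors 6 fell and none rose (2.75% of all features fell), with a median of -0.22. Besides Ddx58 these were Ifi204 (-0.61), Dhx58 (-0.59), Ifih1, which encodes MDA5 (-0.55), the exonuclease Trex1 (-0.37) and the RNA editing enzyme Adar (-0.29), and the antiviral list shares Ddx58, Dhx58 and Ifih1. The calls of Trex1 and Adar were lost in 4 and 3 of the 6 fits without an array, WT replicate 1 among them. Of 17 interferon-inducible GTPases, which act on membranes around pathogens, Irgm2 (-1.13) and Irgm1 (-1.08, adjusted p = 0.00345) fell. Of 28 Toll-like receptors, adaptors and kinases Tlr1 alone was called (-0.37, adjusted p = 0.0115), without WT replicate 1 or Lyn-KO replicate 3 no longer.

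Chemokine genes gave 5 lower and 1 higher of 21, where 2.75% and 1.83% of all features did so. Cxcl10, an interferon-induced attractant of T cells, read 4.59, 3.71 and 3.19 in WT and 2.25, 1.91 and 2.11 in Lyn-KO cells. WT replicate 1 was again the highest, and the difference was -1.74 ± 0.31 (adjusted p = 0.00154). The monocyte attractant Ccl7 read 0.48, 0.53 and 0.56 against -1.11, -0.62 and -0.22 (difference -1.17 ± 0.24, adjusted p = 0.00567). Ccl12, of the same family, was at least 5.16-fold lower (adjusted p = 0.00083, -0.93 on the log2 scale with normexp), and Ccl8 at least 2.63-fold (adjusted p = 0.0046). Ccl8 was well above background on 2 of 3 WT arrays and was not called with normexp. Pf4, a platelet chemokine also made by macrophages, read 3.66, 3.59 and 3.70 against 2.27, 2.48 and 2.47 (difference -1.25 ± 0.18, adjusted p = 0.00026). Ccl22, a product of mature dendritic cells, was 0.88 ± 0.24 higher (adjusted p = 0.0443), a call lost in 4 of the 6 fits without an array, with quantile normalization and with normexp.

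Of 27 monocyte and macrophage markers 5 fell and none rose, where 2.75% of all features fell, with a list median of -0.21. The mannose receptor gene Mrc1 read 1.23, 1.46 and 1.38 in WT and 0.49, 0.25 and 0.28 in Lyn-KO cells (difference -1.02 ± 0.22, adjusted p = 0.00875). The lipid carrier gene Apoe read 4.44, 4.32 and 4.46 against 3.73, 3.65 and 3.51 (difference -0.78 ± 0.14, adjusted p = 0.00181). Both groups were tight and did not overlap for either gene. Maf, a transcription factor of macrophages, differed by -1.24 ± 0.21 (adjusted p = 0.00086), and Ms4a7 by -0.63 ± 0.13 (adjusted p = 0.00459). Fcgr1, the high-affinity IgG receptor, fell by 0.97 (SE 0.22, adjusted p = 0.0134), a call lost without WT replicate 1 or Lyn-KO replicate 1. The growth factor receptor Csf1r (-0.21) and the complement gene C1qa (-0.84, adjusted p = 0.103) were not called.

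Plasmacytoid dendritic cell markers moved the other way in part. Of 27, 7 rose and none fell, where 1.83% of all features rose, and 24 had values above 0. The list median was 0.26, or 0.28, 0.23 and 0.27 within the slides, and with the slide as a block 10 rose and 1 fell. Lifr, a cytokine receptor gene, read 2.31, 2.43 and 2.36 in WT and 2.87, 2.94 and 2.94 in Lyn-KO cells. The rise of 0.55 ± 0.05 (adjusted p = 2.12e-06) exceeded the spread within either group. Upb1, an enzyme of pyrimidine breakdown, read 3.98, 3.93 and 3.88 against 4.56, 4.40 and 4.86 (0.68 ± 0.14, adjusted p = 0.00731), a call lost without Lyn-KO replicate 3.

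Havcr1 was 0.47 ± 0.07 higher (adjusted p = 0.000245). Cox6a2, Lair1 and Bst2 also rose, and the call of Cox6a2 (0.42, adjusted p = 0.017) was lost without WT replicate 2 or Lyn-KO replicate 1. The defining marker Siglech read 7.83, 7.31 and 7.68 in WT against 7.66, 7.83 and 7.80, groups that overlapped (0.16, adjusted p = 0.6). Tcf4, the transcription factor that specifies these cells, differed by 0.26 ± 0.09 and was not called (adjusted p = 0.103). The labels name the cells only as BMDCs, and these markers of the plasmacytoid type, Siglech and Tcf4, were well above background on all 6 arrays.

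Maturation and migration genes gave 5 higher and 1 lower of 24, where 1.83% and 2.75% of all features did so. Of the 5, Socs2 and Slamf9 lost their calls in 4 and 5 of the 6 fits without an array. Fscn1, which bundles actin in mature dendritic cells, read 0.18, 0.87 and 0.82 in WT and 1.69, 1.63 and 1.63 in Lyn-KO cells. WT replicate 1 lay below the other WT arrays, and the rise was 1.03 ± 0.21 (adjusted p = 0.00527). Ccr7, the receptor that draws dendritic cells to lymph nodes, read 5.75, 5.94 and 5.95 against 6.45, 6.32 and 6.37. The rise of 0.50 ± 0.12 (adjusted p = 0.0189) was not called without WT replicate 1, Lyn-KO replicate 1 or Lyn-KO replicate 3, nor with quantile normalization. Tnfrsf4, which encodes OX40, rose by 0.34 ± 0.07 (adjusted p = 0.00337). The costimulatory genes Cd40 (-0.14), Cd80 (0.08) and Cd86 (0.02) were not called, and neither were any of 16 MHC class II genes or of 20 MHC class I loading genes. Cd8a, an accessory molecule of some dendritic cells, was 0.53 ± 0.10 higher (adjusted p = 0.00206).

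Osteoclast genes gave 3 higher and none lower of 13, where 1.83% of all features rose, with a median of 0.10. With the slide as a block 5 rose. Ctsk, the collagen-degrading cathepsin of osteoclasts, read -1.51, -1.58 and -1.33 in WT and -0.29, 0.64 and 0.61 in Lyn-KO cells, where replicate 1 was the lowest. The rise was 1.79 ± 0.37 (adjusted p = 0.00689). Acp5, the tartrate-resistant phosphatase, read from 2.96 to 3.22 in WT against 3.64, 4.54 and 4.39 (1.10 ± 0.28, adjusted p = 0.0273), with the call lost in 5 of the 6 fits without an array. Atp6v0d2, a proton pump subunit, was 2.84-fold higher (adjusted p = 0.0138), was well above background on 1 of 3 WT arrays, and was not called without WT replicate 3 or Lyn-KO replicate 3, nor with normexp. Ctsl, the cathepsin that processes the invariant chain in some antigen-presenting cells, rose by 0.40 ± 0.08 (adjusted p = 0.00545), but was not called with normexp.

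The largest single rise was that of Syt10, a calcium sensor of vesicle release. It read -4.46, -4.25 and -4.12 on the WT arrays, none well above background, and 1.12, 0.98 and 0.95 on the Lyn-KO arrays. With the scaling used here this makes it at least 36.5-fold higher (adjusted p = 9.41e-05). With normexp it was 3.1 higher on the log2 scale, which is less than that bound. Ackr1, a chemokine-binding receptor of endothelium and red cells, read -3.49, -3.21 and -3.51 against -1.17, -1.18 and -1.33 (2.18 ± 0.17, adjusted p = 1.48e-07). It was well above background on 1 of 3 WT arrays, and with normexp its rise was 1.15. Cadm3, an adhesion molecule, read -2.18, -2.06 and -2.29 against -0.33, -0.72 and -0.72 (1.59 ± 0.18, adjusted p = 1.36e-05). The groups stood apart for Syt10, Ackr1 and Cadm3.

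Genes of stromal cells and extracellular matrix also rose. This list was gathered after the values were seen: 14 of 34 measured members rose, none fell and 33 had values above 0, with a median of 0.91, or 0.88, 1.16 and 0.79 within the slides. By comparison, 1.83% of all features rose, and the median over all of them was 0.01. Col5a3, a fibrillar collagen chain, read -5.12, -3.92 and -3.93 in WT and -2.93, -1.55 and -1.53 in Lyn-KO cells (2.32 ± 0.33, adjusted p = 0.000215), with 1 WT and 2 Lyn-KO arrays well above background and a rise of 0.83 with normexp. Col6a1 read -0.67, -0.39 and 0.12 against 0.31, 0.98 and 1.31 (1.18 ± 0.28, adjusted p = 0.0149). Replicate 1 was low and replicate 3 high in each genotype for Col6a1, whose call was lost in 4 of the 6 fits without an array. Pcolce2, an enhancer of procollagen processing, was at least 2.64-fold higher (adjusted p = 0.00234), and 0.45 higher on the log2 scale with normexp. Col1a1, the main fibrillar collagen, was 0.93 higher and not called (adjusted p = 0.104).

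The mean level of the stromal list was -1.30, -1.05 and -0.57 on the WT arrays and -0.56, 0.08 and 0.30 on the Lyn-KO arrays, so the highest WT array nearly met the lowest Lyn-KO array. The number of members called higher was 3 without WT replicate 1, 6 without WT replicate 2, 17 without WT replicate 3, 20 without Lyn-KO replicate 1, 3 without Lyn-KO replicate 2 and 2 without Lyn-KO replicate 3. None was called with the 6 arrays alone, 5 with the 12 unstimulated arrays and 19 with the slide as a block. Of 21 collagen chain genes, a family also gathered afterwards, 4 rose, where 1.83% of all features did so, and 9 with the slide as a block. Of 7 endothelial genes, also gathered afterwards, Ackr1 and Aqp1 (at least 3.14-fold) rose. The call of Aqp1 was lost in 5 of the 6 fits without an array, with adjusted p up to 0.109, and its rise was 0.64 on the log2 scale with normexp. The part of stromal cells in the rise of Ackr1, Ctsk and the other higher genes was not tested.

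**Figure D3:**
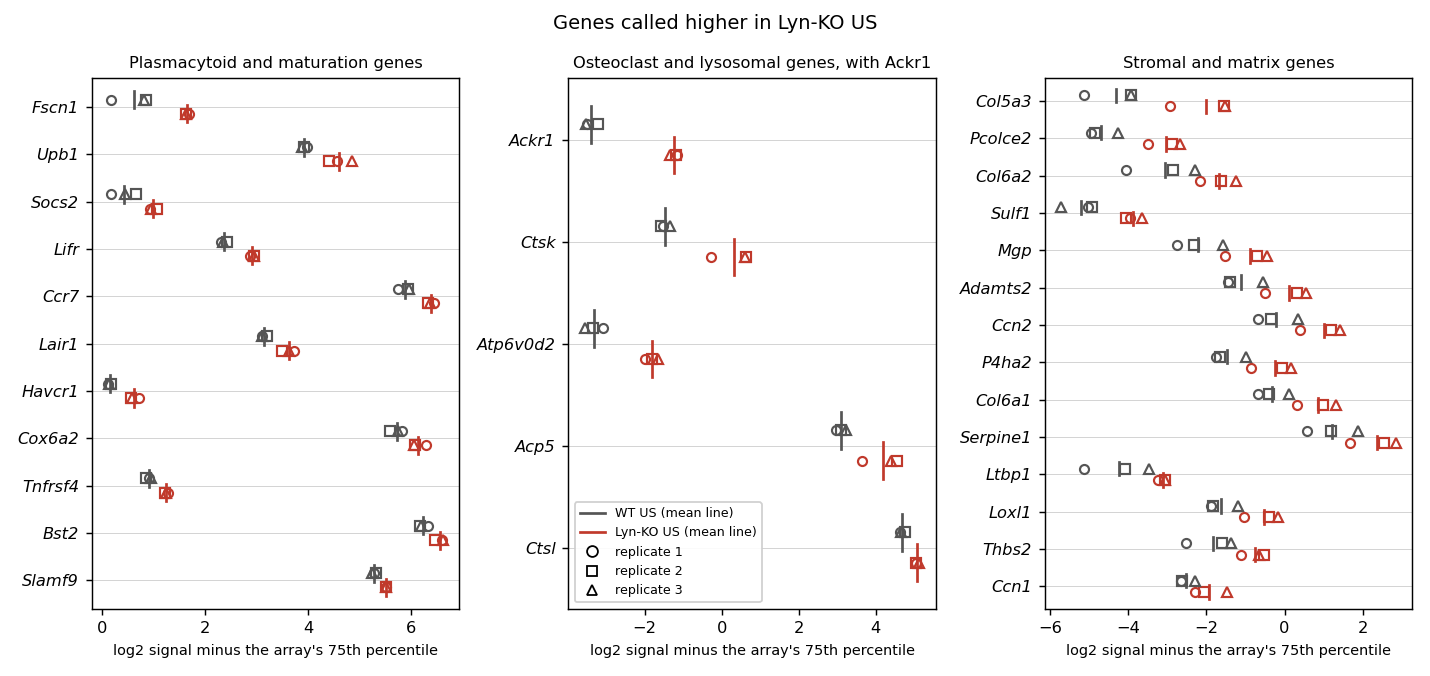
Levels (log2 signal minus the array's 75th percentile, x axes) of genes called higher in Lyn-KO cells and reported here, in 3 panels for plasmacytoid and maturation genes, for osteoclast and lysosomal genes with Ackr1, and for stromal and matrix genes, drawn with WT in grey and Lyn-KO in red. The groups stand clear of each other for Lifr and Ackr1, and in the stromal panel the replicates of each genotype are spread as widely as the gap for several genes.

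Most other lists had few calls, where 1.83% of all features rose and 2.75% fell. Of 34 DNA replication and mitosis genes 31 had values below 0, with a median of -0.12, and 4 fell: Plk1 (-0.42 ± 0.07, adjusted p = 0.00186), Aurka (-0.33), Cdc20 (-0.31) and Cdk1 (-0.30). The call of Cdc20 was lost in 5 of the 6 fits without an array, and that of Cdk1 with normexp. Without stimulation, DKO against Irf5-KO cells gave this list a median of -0.02 with none called. After CpG-B, Lyn-KO against WT cells gave 20 lower and 1 higher, where 11.2% and 14% of all features were so. Type 1 conventional dendritic cell markers gave 2 lower of 15 (Cd36 at -0.82, not called without WT replicate 3 or Lyn-KO replicate 1, and Cd24a at -0.44), and type 2 markers 1 higher and 2 lower of 16. The neutrophil list had a median of -0.45 with 1 higher and 1 lower of 20, and 3 were lower in the blocked fit. Of 24 NF-kB genes 2 fell, Map3k8 (-0.44) and Tnfaip2 (-0.29), and none rose. Their calls were lost in 2 and 5 of the 6 fits without an array, and that of Tnfaip2 also with quantile normalization and with normexp.

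**Figure D4:**
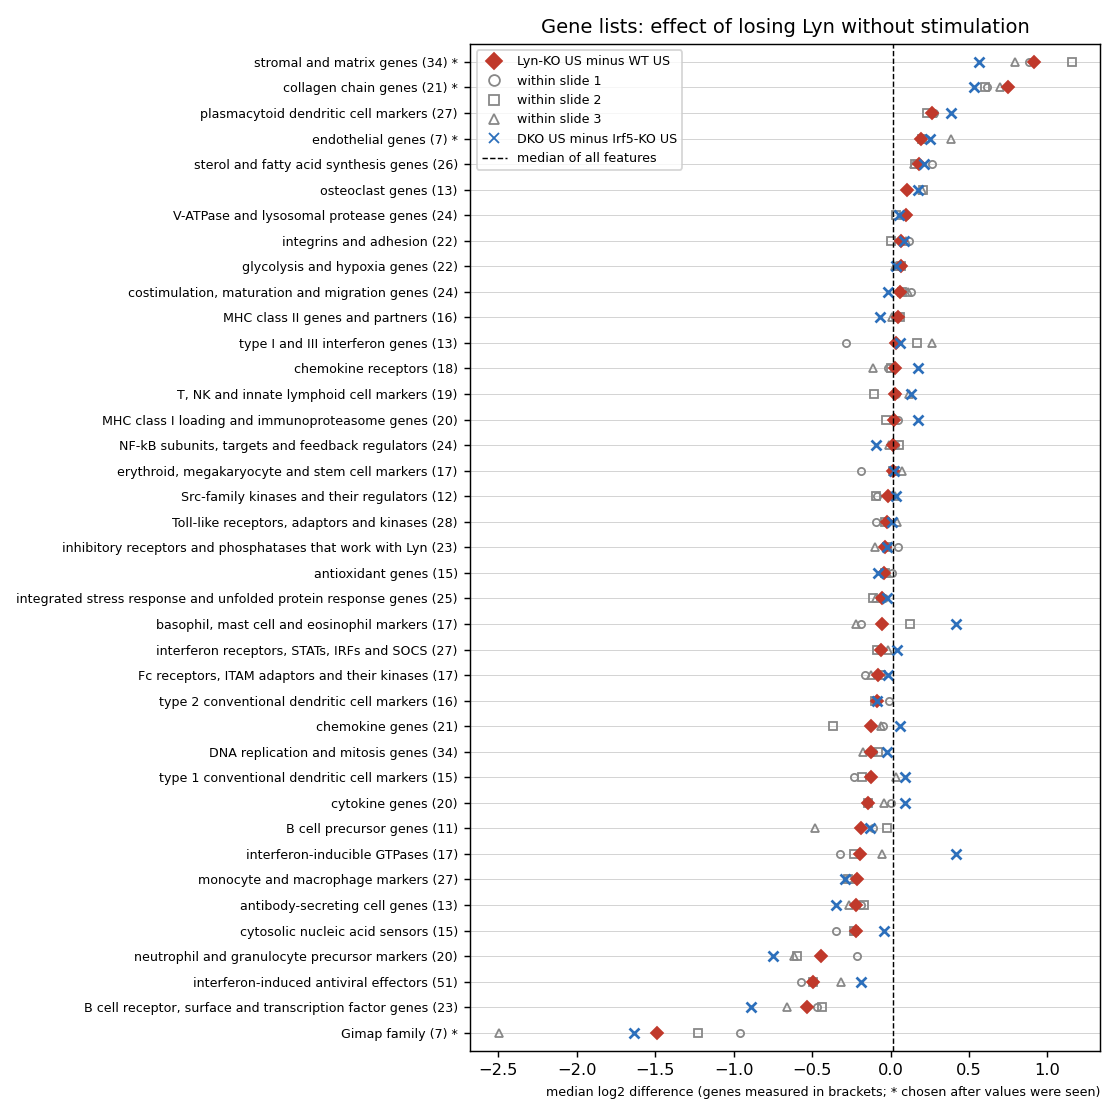
Median log2 difference (x axis) of each gene list, with the number of genes measured, for Lyn-KO minus WT (red), within each of the 3 slides (grey symbols) and for DKO minus Irf5-KO on other arrays (blue crosses), with a dashed line at the median of all features and an asterisk on lists gathered after the values were seen. The Gimap, B cell and antiviral lists lie lowest, at -1.49, -0.54 and -0.49, and the stromal list highest at 0.91.

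Genes that neighbour Lyn on chromosome 4 were counted, since a knockout allele can carry flanking sequence of its origin. Of 51 measured named genes within 20 Mb 6 were called (11.8%), against 4.63% of the other named genes, and of 33 within 10 Mb 5 were called (15.2%). Clvs1, which encodes a lipid-binding protein, read -4.58, -4.41 and -4.12 against -2.57, -2.35 and -2.55 (1.88 ± 0.19, adjusted p = 4.78e-06), with 1 WT array well above background and a rise of 0.74 with normexp. Asph (0.44) and Atp6v0d2 rose, and Ubxn2b (-0.51), Tmem67 (-0.37) and Sdcbp (-0.32) fell. The 6 calls became 3 without WT replicate 3, 2 without Lyn-KO replicate 3 and 2 with the 6 arrays alone. Whether the allele carries such sequence was not tested.

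The same loss of Lyn could be read on arrays that share none of these 6. Of DKO against Irf5-KO cells without stimulation, 1081 features were called (5.35%), 501 higher (2.48%) and 580 lower (2.87%). Of the 556 features lower here 349 were also lower there (62.8%, or 60.2% of that comparison's lower calls), and 2 were higher. Of the 370 higher here 160 were also higher (43.2%, or 31.9% of its higher calls), and 3 were lower. All 14 B cell genes that fell here also fell there, as did 11 of the 12 named genes lower by over 8-fold. Pou2af1 differed by -4.72, Gimap3 by -3.72 and Scd1 by -3.19.

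The interferon group differed in count: 8 of its 27 lower genes were also called lower in DKO against Irf5-KO cells, with 25 values below 0 and a median of -0.43 against -0.94 here. The 27 were chosen by their effect here, and that choice alone favours values nearer 0 there. Ifit3 differed there by -1.12 (adjusted p = 0.0299) and Ddx58 by -0.73. For all 27 genes the unstimulated Irf5-KO mean, the reference of that comparison, was already below the WT mean. This held for 0 of the 14 B cell genes. Both sets were chosen as lower than these same WT arrays, which favours a high WT mean. The share over all features was not counted. The part of the lower reference in the smaller differences was not tested. The test of the difference itself called 17 features (0.0841%), 9 of which were called here. Among the 27 antiviral genes it called Ifi44 alone, which differed by -1.55 in the WT background and 0.61 in the Irf5-KO background (difference of the effects 2.16, adjusted p = 0.0493). Eno2 rose by 0.72 here against 0.11 there. All 7 plasmacytoid genes that rose here also rose in DKO against Irf5-KO cells, Lifr included, and 3 of the 14 stromal genes did.

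After CpG-B, Lyn-KO against WT cells gave 5089 calls (25.2%), 2823 higher (14%) and 2266 lower (11.2%). Of the 556 features lower without stimulation 305 were lower with CpG-B (54.9%, or 13.5% of its lower calls) and 37 were higher, and of the 370 higher 178 were higher (48.1%, or 6.31% of its higher calls) and 31 were lower. The test of the difference between the effects with and without CpG-B, which shares these 6 arrays, called 2239 features (11.1%, with a more positive effect under CpG-B for 6.05%), 297 of the 926 among them. Of the 199 of these that were lower without stimulation, 175 had a more positive effect with CpG-B. The features were chosen by their unstimulated effect, which this test subtracts. That choice alone favours a more positive difference for lower features, so the direction is not a separate result.

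Of the 14 B cell genes that fell without stimulation 7 were also lower with CpG-B, 2 were higher (Fcrl1 by 0.84 and Ralgps2 by 0.55), and 8 differed in effect by this test. Pou2af1 was also lower with CpG-B (-5.01), as were the antibody-secreting cell genes Mzb1 (-4.12) and Jchain (-3.87). Fcmr differed by 0.02 with CpG-B (adjusted p = 0.963), with mean levels of 2.39 in WT and 2.41 in Lyn-KO cells, and the difference from the unstimulated effect was 4.46 (adjusted p = 2.52e-07). Cd79b likewise differed by -0.02 with CpG-B. Il10 differed by -0.14 with CpG-B (adjusted p = 0.63), and 23 of the 27 antiviral genes that fell without stimulation differed in effect, with a median of -0.02 after CpG-B. The antiviral and B cell genes counted here were likewise chosen by their unstimulated effect. CpG-B itself raised all 27 in Irf5-KO cells, where it raised 31.6% of all features. Among higher genes, all 7 plasmacytoid genes, Cadm3 (2.66) and Ctsk (2.25) were higher with CpG-B too. Syt10 and Ackr1 were also called higher there, with no WT array well above background.

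**Figure D5:**
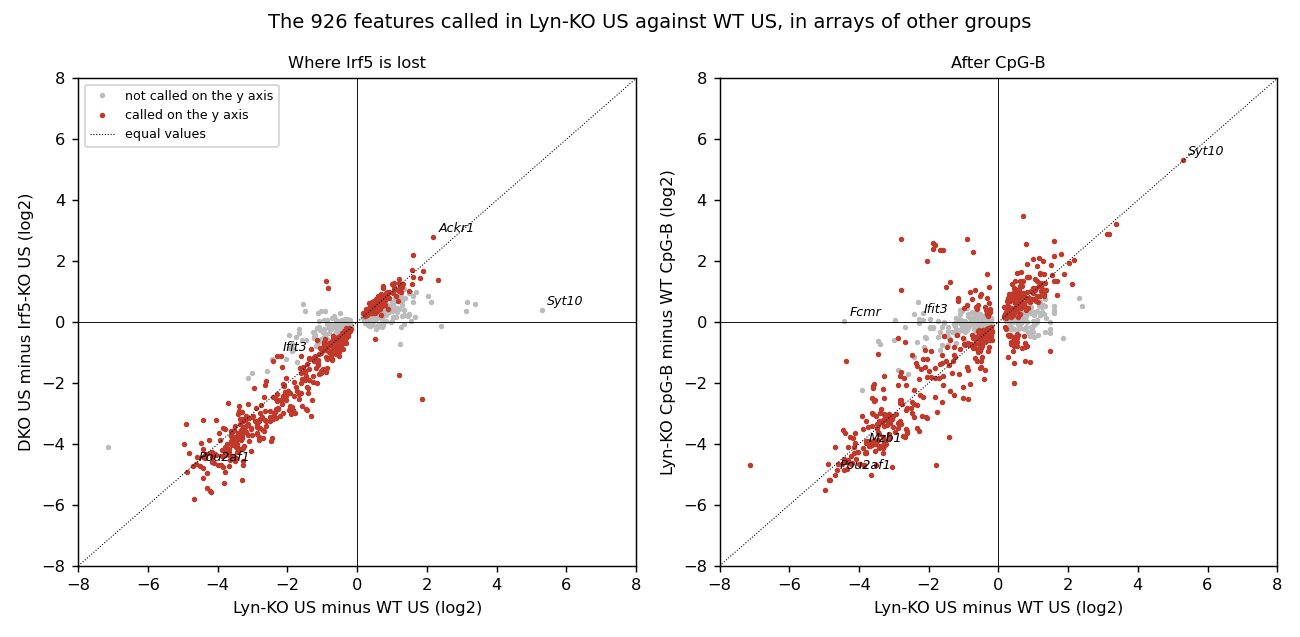
Log2 differences of the 926 called features (x axis, Lyn-KO minus WT without stimulation) against DKO minus Irf5-KO without stimulation (left) and Lyn-KO minus WT after CpG-B (right), red where the feature was also called on the y axis, with a dotted line at equal values. Pou2af1, at the lower left, lies near the line on both sides, whereas Fcmr and Ifit3 lie near 0 after CpG-B, and of the 15 named genes with the largest reductions 9 were called as different in effect after CpG-B. The features were chosen by the unstimulated difference, which favours values nearer 0 on the y axes.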

How the data were processed

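Expression was measured on 24 Agilent 1-colour (Cy3) mouse arrays, 3 per group. Per the file headers, Agilent Feature Extraction 10.7.3.1 gave the deposited intensity of each spot, already background-subtracted. The authors also deposited a table of log2 values, which a comparison with the scanner signals over 13388 probes placed at log2, scaled to the 75th percentile and centred per probe (95th percentile of the absolute difference 0.0143); it served as an alternative.

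Here log2 signals minus each array's 75th percentile (363 to 568 on the 6 arrays) were used. Control spots and 4351 outlier spot values were dropped and repeated spots averaged per probe. Probes well above background on all 3 arrays of a group were kept (26650 probes). A gene's probe with the highest mean level stood for it, giving 20218 features, 12656 of them with a RefSeq gene symbol, matched by the probe's transcript. limma 3.58.1 in R 4.3.3 fitted 8 group means on all 24 arrays (16 residual degrees of freedom), with two-sided tests, Benjamini-Hochberg adjustment over all features and calls under 0.05. The number of arrays limits the precision, and no unused columns of per-sample values exist. Each slide holds 1 array of every group and its number equals the replicate number.

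Named genes are the 15 named features with the largest change in each direction that did not overlap between groups and were flagged above background throughout the brighter group, plus Lyn, Irf5 and genes of the lists, some of which are not reported here. The comparison and lists were chosen with earlier results of these data known, and the stromal, endothelial, Gimap and collagen lists after the values were seen; Asph, Ubxn2b, Tmem67 and Sdcbp were named for their position, and Eno2 after its values were seen. The fit was tested on simulated data for this comparison with 20218 features: it recovered 88% of 2-fold and 97% of 4-fold changes, with 12 false calls among 197. The simulated noise was normal, independent between features and of equal spread in all groups, as the fit assumes. Shifts of whole gene lists on an array, as seen in the data, were not simulated. Alternatives were other scalings, normexp (offset 50) followed by quantile normalization, filters, probe choices, fits on fewer arrays, a replicate block, trend and robust variance, and each of the 6 arrays left out. The replicate block is also the block for slide, since their numbers are equal.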

Additional observations from a re-analysis of the deposited data

Results flagged for a closer look

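The effect of losing Lyn without stimulation differed between the Irf5-KO and the WT background for 17 features, and between CpG-B and no stimulation for 2239, by limma's test of the difference.

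Among the genes with the largest changes and with an array well above background in all 4 groups, the effect after CpG-B minus that without stimulation was 4.46 for Fcmr, 2.43 for Ms4a1 and 2.36 for Cxcr5, all B cell genes, and 1.15 for Scd1. These 4 differences lay nearer 0 after CpG-B than without stimulation, a direction favoured by choosing genes for their large unstimulated change. It was 1.07 for Cadm3, which rose further after CpG-B, and -1.45 for Cyp2c70, which differed by 0.01 after CpG-B. For Lyn itself it was -0.62.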

How the results depend on the processing

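The number of calls, 926 as reported, was 608 with no filter on dim probes and 322 with only the 6 arrays in the fit, and it ranged from 594 to 1065 when each array was left out in turn. With no filter the difference between backgrounds had 10 calls and that between CpG-B and no stimulation 1395, and keeping probes flagged above background on every one of the 24 arrays left the former with 6. Genes called within 20 Mb of Lyn numbered 2 with the 6 arrays and 2 to 6 when an array was left out. The replicate number is also the slide, so the replicate block stands for both. Same-numbered arrays deviated with correlations of 0.167, 0.294 and 0.016, and the fit with this block gave 1127 calls, 908 of them also called without it. Of the called genes checked by name, Hdc alone lost its call under it (adjusted p = 0.0542). Quantile normalization gave 986 calls, the deposited values 928 and normexp together with quantile normalization 1270, of which 735 were among the 926. Higher features were 40% of calls as reported, 46.4% with that pair of changes, 28% with the 6 arrays and 53.6% without Lyn-KO replicate 1. Of 161 called genes checked by name, all kept their sign with normexp and quantile normalization, 51 shrank by over 1.5 times and 134 kept their call, while 110 lost it with the 6 arrays and 65 in at least 1 fit without an array. None of the 15 genes with the largest reductions lost its call when an array was left out, and 6 of the 15 with the largest rises did. No called gene among these 161 changed sign under any alternative run, whereas several list medians close to 0, such as that of the Src-family list, did. Signal near background limits the size of changes in dim probes, and the normexp offset by itself makes them smaller. These runs cannot show whether signal near background also affects the sign, since the genes were already called and the alternatives reuse the same arrays.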
